A study of Homo sapiens with 12 samples.

Results

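The enzymes described here make or use arginine, citrulline and ornithine: ASS1, ASL, ARG2, NOS2, NOS3, AGMAT, GATM, OAT, CPS1 and NAGS. They were chosen by name, and each matched 1 Ensembl gene identifier, giving 10 of the 60664 genes in the count table. Poly(A) RNA was sequenced from TOM-1 and RS4;11, human B-cell acute lymphoblastic leukaemia lines that are both labelled wild type. TOM-1 carries the Philadelphia chromosome, which fuses BCR to ABL1, and RS4;11 carries a KMT2A rearrangement. Each line was cultured for 24 h with ADI-PEG20 at 1000 ng/ml or without it, giving 4 groups of 3 libraries: TOM-1 control, TOM-1 ADI-PEG20, RS4;11 control and RS4;11 ADI-PEG20. All cells grew in RPMI medium with 20% fetal bovine serum. Each genotype is represented by a single line, so the genotype and other properties of the line cannot be told apart.

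Cells can rebuild arginine from citrulline: argininosuccinate synthase (ASS1) joins citrulline to aspartate, and argininosuccinate lyase (ASL) splits the product into arginine and fumarate. ADI-PEG20 is a pegylated bacterial arginine deiminase, which turns the arginine of the medium into citrulline, so cells that lack ASS1 cannot use the product of the drug to replace what it removes. Arginine is consumed by arginases, nitric oxide synthases and the enzyme that starts creatine synthesis, and in liver the mitochondrial enzymes CPS1 and OTC feed carbamoyl phosphate and ornithine into new citrulline.

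Library totals ran from 18958144 to 35956959 counts. TOM-1 control replicate 3 stood apart: 14963 genes had a read in it, against 19857 to 21997 in the other libraries, and ribosomal protein genes took 17.9% of its counts, against 8.14% and 8.37% in the other TOM-1 controls, 5.34% to 5.46% in treated TOM-1 and 7.94% to 8.96% in RS4;11. Its lowest correlation with a library of its group was 0.921, while no other pair of replicates fell below 0.975, so the main results that rest on it are also given without it. B-lineage markers were present in both lines, with all 8 of the list read in every group and a summed level of 2059 to 2979 normalised counts (CPM) per library. T-cell and erythroid markers summed to at most 0.319 and 0.257 CPM, and myeloid markers to between 10.2 and 26.7 CPM. Among the myeloid markers, MPO had 9.79 to 21 CPM in TOM-1 and 0.124 to 0.917 CPM in RS4;11. CSF1R had 0.385 to 4.36 CPM in TOM-1 and 12.1 to 18.3 CPM in RS4;11. LYZ and CD14 did not pass 1.24 and 1.38 CPM, and ELANE was at 0 throughout. HOXA9, MEIS1 and HOXA10, genes of KMT2A-rearranged leukaemia, were at 0 in every TOM-1 library and summed to between 219.7 and 244.2 CPM in RS4;11. Of 4 genes read as markers of cells with a whole urea cycle, OTC was at 0 in TOM-1 and in RS4;11 controls. In treated RS4;11 it reached at most 0.558 CPM. ALB and ARG1 did not pass 0.386 and 0.536 CPM in any library, while CPS1 had 3.81 to 17.5 CPM in TOM-1 and 3.79 to 5.85 CPM in RS4;11.

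The lines differed most in 3 of these enzymes. ASS1 was the most abundant of them per kilobase in RS4;11 and had no read in any TOM-1 control library. GATM, the entry enzyme of creatine synthesis, was also expressed in RS4;11 and was close to 0 in TOM-1, while OAT, ornithine aminotransferase, showed the opposite pattern, with no read in any RS4;11 library. Under ADI-PEG20, NOS2, ASL and OAT fell in TOM-1, and a few ASS1 reads appeared there. RNA was taken from whole cultures, so fewer cells expressing a gene and less RNA per cell cannot be told apart. The labels do not say whether the libraries of a group came from separate cultures, so p-values measure the spread between these libraries, which may be technical.

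Calls below are edgeR quasi-likelihood tests with an adjusted p under 0.05 over 17349 genes. 9 of the 10 enzymes passed the filter on low counts, all but AGMAT, and OAT has no fold change within RS4;11 because all of its libraries are at 0. In TOM-1, ADI-PEG20 changed 4 of the 9 tested enzymes (ASS1 rose, and ASL, NOS2 and OAT fell), where 31.9% of all genes were called, 15.9% as higher and 15.9% as lower. In RS4;11 none of the 9 was called by edgeR or by the Wald test of DESeq2, and none had an unadjusted p under 0.05 in edgeR, where 0% of all genes were called. The difference of the drug effect between the lines was called for NOS2 alone, against 11.9% of all genes, 5.89% with the higher and 6.05% with the lower effect in TOM-1. Between the control cultures 5 of the 9 were called (NOS2 and OAT higher in TOM-1, ASS1, GATM and NOS3 lower), against 34.7% of all genes, 16.2% higher and 18.4% lower. Under ADI-PEG20 7 of the 9 differed between the lines (CPS1, NOS2 and OAT higher in TOM-1, ASL, ASS1, GATM and NOS3 lower), against 47.2% of all genes, 23.1% higher and 24% lower. The comparisons share groups of libraries and are not independent of each other.

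Without TOM-1 control replicate 3, the filter left 18321 genes and all 10 enzymes. The 4 calls in TOM-1 remained, where 41.6% of all genes were then called, and NOS2 remained the single call for the difference between the lines, where the share was 30.4%. ASS1 became a call in RS4;11, where 0.317% of genes were called. CPS1 and ASL joined the calls between the control cultures, giving 7 against a share of 52.8%, and the calls under ADI-PEG20 stayed at 7 against 62.9%. Leaving out a library other than that one moved some counts too. Without treated TOM-1 replicate 1 there were 2 calls in TOM-1 (ASL and NOS2), where 3971 of 18290 genes were called. The difference between the lines was called for GATM beside NOS2 without TOM-1 control replicate 1, and for ASS1 beside NOS2 without treated TOM-1 replicate 3. Those fits called 2748 of 18323 and 1220 of 18182 genes for that difference. With all 12 libraries, the median log2 fold change of the 9 tested enzymes, with genes at 0 taken at their bound, was -0.17 for ADI-PEG20 in TOM-1, against 0.05 over all genes. Without TOM-1 control replicate 3 it was -0.51 over 10 enzymes, against 0.00. In RS4;11 it was -0.17 over 8 enzymes with all libraries and -0.23 over 9 without that library, against 0.00 over all genes in both fits.

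**Figure D1:**
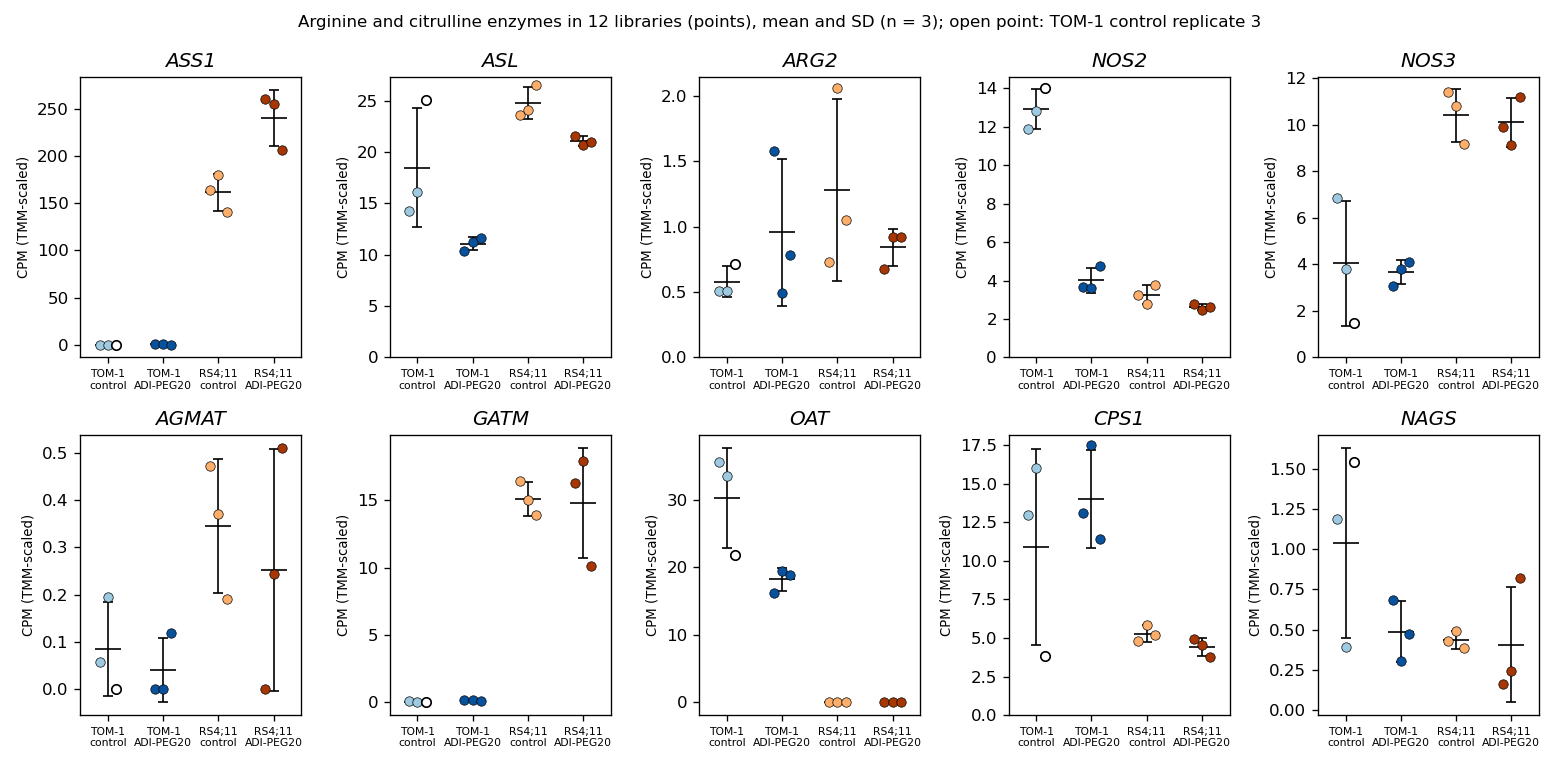
Level of each of the 10 enzymes in CPM after TMM scaling of the libraries (vertical axis) in the 4 groups (horizontal axis). Points are libraries, bars the mean and SD of 3 libraries, and the open point is TOM-1 control replicate 3. ASS1 and GATM sit at or near 0 in TOM-1 and OAT at 0 in RS4;11, and NOS2 in TOM-1 controls lies above 11 CPM, where no other group passes 5 CPM.

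Sequence upstream of the gene starts is shown for ASS1 and OAT, which had no read in any control library of 1 line, and for CPS1, which has few CG dinucleotides, as a contrast. Each stretch comes from RefSeq promoter windows (GRCh38.p14, 250 bases before to 50 bases after a start). It is printed 5′ to 3′ on the gene's strand, ends before the annotated exons, and has its CG dinucleotides in capitals. The ASS1 stretch is chr9:130444457-130444706 (plus strand, 21 CG), the OAT stretch chr10:124418977-124419173 (minus strand, 24 CG) and the CPS1 stretch chr2:210477435-210477681 (plus strand, 1 CG).
ASS1: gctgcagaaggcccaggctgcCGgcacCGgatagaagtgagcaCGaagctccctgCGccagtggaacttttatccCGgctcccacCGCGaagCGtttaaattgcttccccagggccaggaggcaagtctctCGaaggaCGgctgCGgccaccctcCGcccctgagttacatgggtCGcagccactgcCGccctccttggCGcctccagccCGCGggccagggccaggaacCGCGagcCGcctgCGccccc
OAT: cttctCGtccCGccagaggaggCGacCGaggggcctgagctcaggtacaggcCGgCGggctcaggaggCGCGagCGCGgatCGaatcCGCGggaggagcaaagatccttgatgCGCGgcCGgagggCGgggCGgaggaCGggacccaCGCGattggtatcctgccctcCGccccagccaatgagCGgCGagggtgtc
CPS1: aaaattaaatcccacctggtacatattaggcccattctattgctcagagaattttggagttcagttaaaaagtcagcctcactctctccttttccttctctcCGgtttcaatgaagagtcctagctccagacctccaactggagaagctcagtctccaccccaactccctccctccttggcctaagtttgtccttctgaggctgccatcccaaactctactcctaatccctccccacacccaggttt

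Of the 10 enzymes, 9 matched a RefSeq window, all but NOS2, with 13 windows in all, some of which overlap. Both ASS1 windows held 29 CG dinucleotides in 300 bases, the OAT window 33 and the GATM window 41, against a median of 14 over 35116 windows. The GATM window ranks above 93.3% of all windows by this count, and its start lies 23783 bases downstream of the GENCODE 29 gene start. The ASS1 windows rank above 75.8%, OAT above 82.8%, ASL above 77.6% and ARG2 above 79.3%. The 3 CPS1 windows held 1, 3 and 3. CG-rich starts thus belong to ASS1, GATM and OAT, each at or near 0 in 1 of the lines. They also belong to ASL (30) and ARG2 (31), which were read in every library. AGMAT, with 0 to 5 reads per TOM-1 library, held 19. DNA methylation was not measured. The letters CACGTG, an E-box, stood in 2 of the 13 windows, at a start of ASS1 and a start of CPS1, and in 7.26% of all windows. TGACGTCA, the cyclic AMP response element, stood in the ARG2 window alone, in 2 places, and in 1.85% of all windows. TGATGNAA, the core bound by C/EBP and ATF factors, stood in none of the 13 and in 3.62% of all windows (both strands searched for each motif).

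ASS1 (ENSG00000130707, chr9:130444929-130501274, plus strand, 18 exon blocks in GENCODE 29) makes argininosuccinate, the step that decides whether a cell can use citrulline. In RS4;11 its level was 163.9, 180.3 and 140.4 CPM in control culture, a mean of 161.5 ± 20.1 (SD, n = 3). With ADI-PEG20 it was 260.4, 255.0 and 206.5 CPM, a mean of 240.6 ± 29.7 (SD, n = 3). The treated RS4;11 libraries were all higher than the controls, with no overlap. The fitted difference was 0.57 log2 (SE 0.34), 1.49-fold, with an edgeR adjusted p of 1. Without TOM-1 control replicate 3, a library of the other line that enters the shared estimate of spread, the difference was again 0.57 (SE 0.12) with an edgeR adjusted p of 0.0422.

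TOM-1 controls had 0 ASS1 reads in all 3 libraries, where 3 reads, the floor taken for a count of 0, would be 0.0853, 0.117 and 0.166 CPM. With ADI-PEG20 the counts were 14, 5 and 0. Reads were thus seen in 2 of the 3 treated libraries, and replicate 1 held 14 of the 19. The treated mean of 0.263 ± 0.306 CPM (SD, n = 3) was 2.15-fold the control floor of 0.123 CPM. The floor bounds the control side alone, not the spread of the treated libraries. This ratio rests on replicate 1, at 0.599 CPM, since replicates 2 and 3 were at 0.191 and 0 CPM. edgeR called the rise at an adjusted p of 0.0266. That call was lost without treated replicate 1 (0.0751) or without control replicate 1 (0.0626) and stood in 10 of 12 fits that each left out 1 library. The difference of this effect from that in RS4;11 was not called (edgeR adjusted p of 0.0934, and 0.0579 without control replicate 3).

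Even with these reads, ASS1 in treated TOM-1 was 957.1-fold lower than in treated RS4;11 (95% interval of the ratio of summed counts 612.7 to 1590, counting error only). In control culture it was at least 1318-fold lower. Both differences were called by edgeR, with adjusted p of 2.99e-07 and 3.15e-07, and in every fit that left out 1 library. The fitted value under ADI-PEG20 was -9.85 log2, and -11.25 without treated TOM-1 replicate 1, which held most of the reads.

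The genome holds processed copies of ASS1, and 14 were in the table, 88.2% to 93.9% identical to ASS1 over their aligned bases. 8 of them had no read in any library. ASS1P1, on chromosome 6 and 92.1% identical, had 39, 42 and 0 reads in TOM-1 controls and 10, 26 and 4 in treated TOM-1. RS4;11 libraries, with 2935 to 6532 ASS1 reads each, had 0 reads in ASS1P1 except for 1 read in 1 treated library. ASS1P10, on chromosome 5, had 24 reads in TOM-1 control replicate 3 and 0 in every other TOM-1 library. ASS1P2, ASS1P9, ASS1P11 and ASS1P13 each had 1 to 6 reads over the 12 libraries. Reads of these copies and of ASS1 can be exchanged where they match both, and how such reads were counted is not given in the sources used here, so the 19 ASS1 reads of treated TOM-1 are uncertain.

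Protein-coding neighbours of ASS1 on chromosome 9 were read to see how far the low signal reached. NCS1, a calcium sensor, and HMCN2, whose starts lie at -272.4 and -179.0 kb from that of ASS1, had no read in any of the 6 TOM-1 libraries. RS4;11 controls had 4.42 ± 0.88 CPM of NCS1 and 0.571 ± 0.557 CPM of HMCN2 (SD, n = 3). NCS1 was therefore at least 36.1-fold lower in TOM-1 controls, with an edgeR adjusted p of 1.99e-05. Other neighbours were expressed in both lines. FUBP3, 134 kb after ASS1, had 76.6 ± 29.5 CPM in TOM-1 controls and 89.8 ± 5.3 CPM in RS4;11 controls (SD, n = 3). GPR107, at -391.5 kb, had 61.1 ± 21.4 and 64.2 ± 5.2 CPM (SD, n = 3). FUBP3 and GPR107 were not called, with log2 differences of -0.23 (SE 0.23) for FUBP3 and -0.07 (SE 0.21) for GPR107, and of 0.05 (SE 0.08) and 0.18 (SE 0.09) without TOM-1 control replicate 3. FNBP1, at -557.7 kb, was lower in TOM-1, with 92.7 ± 26.5 against 142.8 ± 9.65 CPM (SD, n = 3). Its log2 difference was -0.62 (SE 0.18, edgeR adjusted p of 0.0202), and -0.41 (SE 0.08, adjusted p of 0.000225) without that library.

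ABL1, the kinase gene joined to BCR by the Philadelphia chromosome, starts 269 kb after ASS1 on the same strand. It had 257.2 ± 74.8 CPM in TOM-1 controls and 159.7 ± 10.2 CPM in RS4;11 controls (SD, n = 3), a log2 difference of 0.69 (SE 0.18) with an edgeR adjusted p of 0.0108, and of 0.91 (SE 0.06) without TOM-1 control replicate 3. EXOSC2, an exosome subunit between ASS1 and ABL1, had 100.6 ± 21.7 and 110.3 ± 0.646 CPM (SD, n = 3) and was called only without that library (log2 -0.32, SE 0.07, edgeR adjusted p of 0.000665). USP20 had 46.7 ± 1.69 and 48 ± 4.81 CPM (SD, n = 3). PRDM12 was at or near 0 in both lines, and QRFP, beyond ABL1, was below 1 CPM in every control library. Copy number was not measured, so a loss of DNA and a lack of transcription cannot be told apart at NCS1, HMCN2 and ASS1.

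**Figure D2:**
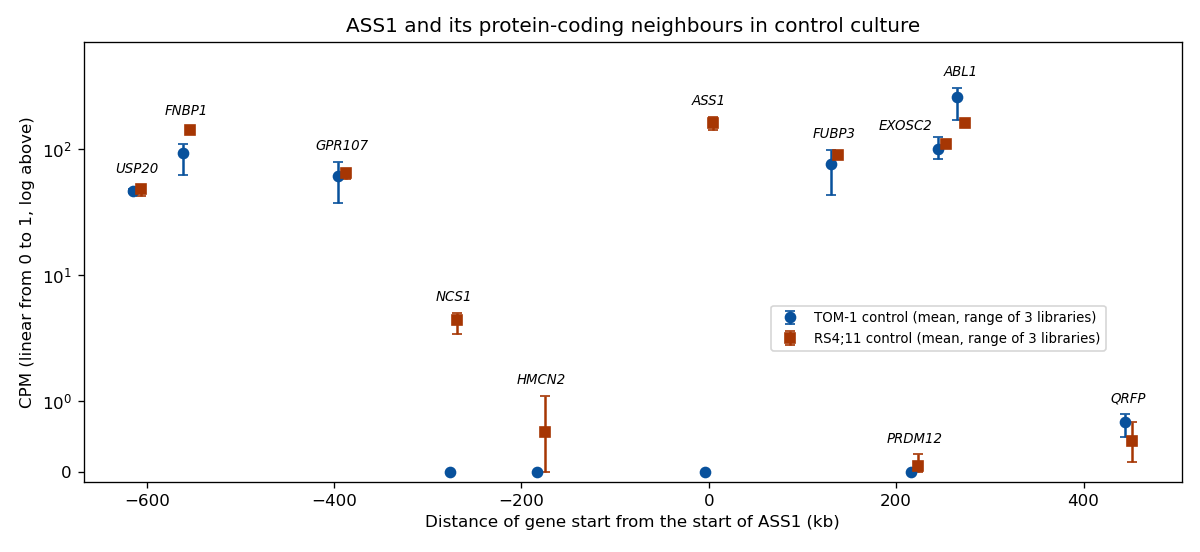
CPM in control culture (vertical axis, linear from 0 to 1 and logarithmic above) of ASS1, ABL1 and the 5 nearest protein-coding genes on each side, by distance of the gene start from that of ASS1 in kb (horizontal axis). Symbols, set slightly apart sideways for the lines, are means of 3 libraries and bars their range. TOM-1 is at 0 for NCS1, HMCN2, ASS1 and PRDM12 and close to RS4;11 at USP20, GPR107, FUBP3 and EXOSC2.

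The genes with a pattern most like that of ASS1 over the 12 libraries, by root mean square difference of centred log2 CPM among 10429 genes, were VAT1L (0.84), MAGI1 (0.86) and AFDN (0.86), against a median of 5.31. All 3 had no read in TOM-1 and means of 102.8 to 134.9 CPM in RS4;11. VAT1L averaged 102.8 ± 4.05 CPM in RS4;11 controls and 134.9 ± 6 CPM with ADI-PEG20 (SD, n = 3). The likeness rests on absence from TOM-1, which these genes share with ASS1.

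ASL (ENSG00000126522, chr7:66075798-66093558, plus strand) completes the route to arginine and was expressed in all 12 libraries. In TOM-1 its level was 14.3, 16.1 and 25.1 CPM in control culture and 10.4, 11.2 and 11.6 CPM with ADI-PEG20. Every treated library was lower than every control, and control replicate 3 was the highest. ASL fell by 0.73 log2 (SE 0.19, 1.66-fold) with an edgeR adjusted p of 0.0118, and without control replicate 3 by 0.45 (SE 0.13, 1.37-fold) with an adjusted p of 0.00727. In RS4;11 it was 23.6, 24.1 and 26.5 CPM in control culture and 21.6, 20.7 and 21 CPM with the drug. The groups again did not overlap, but the log2 difference of -0.23 (SE 0.19) was not called by edgeR (adjusted p of 1, and 0.442 without TOM-1 control replicate 3).

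The ASL effects of the lines differed by -0.50 log2 (SE 0.27), with an edgeR adjusted p of 0.252, so the fall was not shown to be larger in TOM-1. ASL was lower in TOM-1 than in RS4;11 under ADI-PEG20, by 1.9-fold (log2 -0.93, SE 0.19, edgeR adjusted p of 0.0017). In control culture the log2 difference was -0.42 (SE 0.19) with an adjusted p of 0.105, and -0.71 (SE 0.13) with an edgeR adjusted p of 9.72e-05 without TOM-1 control replicate 3. A lncRNA, AC068533.4, shares 17.6% of the exonic bases of ASL on the same strand, so part of its reads cannot be assigned with certainty. Its pseudogene ASLP1, 83.5% identical over the aligned stretch, had 247 reads over all 12 libraries, against 834 to 1691 per group for ASL.

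The closest patterns to ASL were those of FARSA, a subunit of phenylalanyl-tRNA synthetase (0.06), TRAF4, a signalling adaptor (0.08), and DNPEP, an aspartyl aminopeptidase (0.08), against a median of 0.64 over 10429 genes. FARSA averaged 150.8 ± 46.7 CPM in TOM-1 controls, 90.9 ± 2.09 with ADI-PEG20, 196.1 ± 7.76 in RS4;11 controls and 173.2 ± 4.4 with ADI-PEG20 (SD, n = 3). Each of the 3 was, like ASL, lowest in treated TOM-1 and highest in RS4;11 controls. They were picked for likeness to ASL over these same 12 libraries, TOM-1 control replicate 3 included, so the shared order follows from the choice.

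Because ASS1 and ASL act in sequence, their levels were compared per kilobase of exonic sequence. In RS4;11 the ratio of ASS1 to ASL was 7.27, 7.82 and 5.54 in control culture, a mean of 6.88 ± 1.19 (SD, n = 3). With ADI-PEG20 it was 12.6, 12.9 and 10.3, a mean of 11.9 ± 1.41 (SD, n = 3). The treated ratios were all above the controls. This follows from the levels above, where treated libraries were all higher for ASS1 and all lower for ASL. The two-sided exact permutation p was thereby fixed at 0.1, the smallest that 3 against 3 libraries allow, and adds nothing to those levels. In TOM-1 controls the ratio was 0, since ASS1 had no read.

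NOS2 (ENSG00000007171, chr17:27756766-27800499, minus strand), the inducible nitric oxide synthase, converts arginine to citrulline and nitric oxide. TOM-1 controls had 11.9, 12.8 and 14 CPM and treated TOM-1 had 3.64, 3.63 and 4.76 CPM. The groups were far apart, and control replicate 3 lay with the other controls. NOS2 fell by 1.68 log2 (SE 0.21, 3.21-fold) with an edgeR adjusted p of 0.000153, and by 1.62 (SE 0.24) without control replicate 3. All 12 fits that left out 1 library called this fall, with log2 values from -1.85 to -1.62.

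In RS4;11 NOS2 was 3.26, 2.76 and 3.78 CPM in control culture and 2.79, 2.48 and 2.61 CPM with ADI-PEG20. The ranges overlapped, and the log2 difference was -0.31 (SE 0.22), with an edgeR adjusted p of 1. The effect in TOM-1 differed from this by -1.37 log2 (SE 0.30) with an edgeR adjusted p of 0.0127, and by -1.31 (SE 0.34) without TOM-1 control replicate 3. In control culture TOM-1 had 3.94-fold more NOS2 than RS4;11 (log2 1.98, SE 0.21, edgeR adjusted p of 1.68e-05). Under ADI-PEG20 the excess was 1.52-fold (log2 0.61, SE 0.21, edgeR adjusted p of 0.0347). That last call was kept in 1 of 12 fits that left out 1 library, with adjusted p from 0.0308 to 0.178, the lowest of them without TOM-1 control replicate 3. The 4 NOS2 pseudogenes in the table held 3 reads in all, in a single RS4;11 control library.

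NOS3 (ENSG00000164867, chr7:150990995-151014588, plus strand), the endothelial nitric oxide synthase, was higher in RS4;11. Its level there was 11.4, 10.8 and 9.18 CPM in control culture and 9.92, 9.13 and 11.2 CPM with ADI-PEG20. The drug groups overlapped, with a log2 difference of -0.05 (SE 0.38). TOM-1 controls had 6.85, 3.82 and 1.49 CPM and treated TOM-1 had 3.08, 3.78 and 4.09 CPM. The TOM-1 controls spanned the treated libraries, with replicate 3 the lowest. The log2 difference of -0.17 (SE 0.39) was not called by edgeR (adjusted p of 0.8). Without control replicate 3 it was -0.56 (SE 0.24, adjusted p of 0.0732), and without control replicate 1 it was 0.40.

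Between the lines NOS3 was 2.53-fold lower in TOM-1 in control culture (log2 -1.34, SE 0.39, edgeR adjusted p of 0.0186) and 2.76-fold lower under ADI-PEG20 (log2 -1.46, SE 0.39, edgeR adjusted p of 0.00896). The control difference was -0.96 without TOM-1 control replicate 3 and -1.99 without replicate 1, and missed the threshold without RS4;11 control replicate 1 (edgeR adjusted p of 0.0533). NOS2 and NOS3 thus lay in opposite order in the lines, NOS2 higher in TOM-1 and NOS3 higher in RS4;11. ATG9B shares 13.2% of the exonic bases of NOS3 on the opposite strand, and whether counting used strand is not given in the sources used here. The neuronal enzyme NOS1 had 3 reads in 1 TOM-1 control library and 0 in the other libraries.

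GATM (ENSG00000171766, chr15:45361124-45402327, minus strand) moves the amidino group of arginine to glycine, which releases ornithine and begins creatine synthesis. RS4;11 had 16.4, 15 and 13.9 CPM in control culture and 16.3, 17.9 and 10.1 CPM with ADI-PEG20. The treated range enclosed that of the controls, with a log2 difference of -0.03 (SE 0.30). TOM-1 counts were 3, 0 and 0 in control culture and 3, 3 and 2 with ADI-PEG20, at or below the 3 reads taken as the floor in every library, so no fold is given within TOM-1. edgeR did not call that difference (adjusted p of 0.222), except without control replicate 1 (0.0275), which held all 3 reads of the controls. The comparison of control cultures rests on those reads too: its fitted log2 difference ran from -11.47 without that library to -8.00 without control replicate 2. GATM was 398.5-fold lower in TOM-1 than in RS4;11 in control culture (95% interval 136.0 to 1936) and 140.0-fold lower under ADI-PEG20 (95% interval 70.8 to 325.2), by summed counts and for counting error only. Both differences were called in every fit, with edgeR adjusted p of 1.36e-07 and 1.78e-07 over all 12 libraries.

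GAMT, which turns the product of GATM into creatine, was abundant in both lines, unlike GATM. TOM-1 controls had 81.1, 76.6 and 212.4 CPM, the last in replicate 3, and treated TOM-1 had 34.2, 33.4 and 34.7 CPM. It fell by 1.85 log2 (SE 0.31) in TOM-1, with an edgeR adjusted p of 0.00102, and by 1.21 (SE 0.08) without control replicate 3. In RS4;11 GAMT averaged 106.8 ± 4.91 CPM in control culture and 106.6 ± 5.83 CPM with ADI-PEG20 (SD, n = 3). The difference of the GAMT effect between the lines was called too, at -1.85 log2 (SE 0.43, edgeR adjusted p of 0.0175), and at -1.21 (SE 0.10) without TOM-1 control replicate 3.

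ARG2 (ENSG00000081181, chr14:67619798-67651720, plus strand), the mitochondrial arginase, was scarce. Its counts were 18, 13 and 13 in TOM-1 controls, 37, 13 and 20 in treated TOM-1, 17, 50 and 22 in RS4;11 controls and 17, 19 and 18 in treated RS4;11. In each line 1 library stood above the rest and the groups overlapped. Log2 differences with the drug were 0.72 (SE 0.59) in TOM-1 and -0.61 (SE 0.58) in RS4;11, and edgeR called no ARG2 contrast (lowest adjusted p of 0.16). VTI1B shares 37.4% of the exonic bases of ARG2 on the opposite strand, so these reads may belong in part to VTI1B. The cytosolic arginase ARG1 had 0 to 13 reads per library.

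AGMAT (ENSG00000116771, chr1:15572353-15585110, minus strand), annotated as agmatinase, was the weakest enzyme that showed reads in both lines. Counts were 2, 5 and 0 in TOM-1 controls, 0, 0 and 3 in treated TOM-1, 11, 9 and 4 in RS4;11 controls and 0, 5 and 10 in treated RS4;11. It failed the filter with all 12 libraries and passed in 10 of the 12 fits that left out 1 library. Without TOM-1 control replicate 3 edgeR called none of its contrasts (lowest adjusted p of 0.16). Summed over controls, the ratio of RS4;11 to TOM-1 was 3.95 (95% interval 1.65 to 10.9, counting error only). At this depth a drug effect on AGMAT was not detectable.

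OAT (ENSG00000065154, chr10:124397303-124418976, minus strand) links ornithine to glutamate semialdehyde, and so to proline and glutamate. TOM-1 controls had 35.6, 33.5 and 21.8 CPM, and treated TOM-1 had 16.2, 19.5 and 18.9 CPM. All treated libraries were below all controls, and control replicate 3 came closest to them. OAT fell by 0.74 log2 (SE 0.23, 1.67-fold) with an edgeR adjusted p of 0.04, and by 0.93 (SE 0.17, 1.9-fold) with an adjusted p of 0.000166 without control replicate 3. The call was lost on leaving out any 1 of the other 5 TOM-1 libraries, where the edgeR adjusted p ran from 0.078 to 0.136 and the log2 value from -0.82 to -0.64.

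All 6 RS4;11 libraries had 0 OAT reads, where 3 reads would be 0.12 to 0.154 CPM. OAT was at least 229.6-fold higher in TOM-1 in control culture and at least 130.2-fold higher under ADI-PEG20, with edgeR adjusted p of 6.52e-07 and 8.11e-07. Per kilobase OAT had the highest mean of the 10 enzymes in TOM-1. In the controls its range (6.43 to 10.5 CPM per kilobase) overlapped that of ASL (4.47 to 7.86). The enzyme with the highest mean in each line, ASS1 in RS4;11 and OAT in TOM-1, was at 0 in the control culture of the other.

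CPS1 (ENSG00000021826, chr2:210477682-210679107, plus strand) makes carbamoyl phosphate in mitochondria. TOM-1 controls had 13, 16 and 3.81 CPM and treated TOM-1 had 13.1, 17.5 and 11.4 CPM. Only control replicate 3 departed. The log2 difference of 0.35 (SE 0.39, edgeR adjusted p of 0.547) became -0.05 (SE 0.20) without it. RS4;11 had 4.81, 5.85 and 5.21 CPM in control culture and 4.94, 4.52 and 3.79 CPM with ADI-PEG20, overlapping ranges with a log2 difference of -0.26 (SE 0.40). CPS1 was higher in TOM-1 under ADI-PEG20, 3.16-fold (log2 1.66, SE 0.40, edgeR adjusted p of 0.00496). In control culture the excess was 1.05 log2 (SE 0.40, edgeR adjusted p of 0.0586) and 1.45 (SE 0.21, edgeR adjusted p of 4.27e-06) without control replicate 3.

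NAGS (ENSG00000161653, chr17:44004546-44009063, plus strand) makes N-acetylglutamate, the activator that CPS1 requires. It had 42, 10 and 28 reads in TOM-1 controls, 16, 8 and 12 in treated TOM-1, 10, 12 and 8 in RS4;11 controls and 4, 5 and 16 in treated RS4;11. The groups overlapped within each line, and edgeR called no NAGS contrast (lowest adjusted p of 0.235). Its log2 difference with the drug was -1.09 (SE 0.75) in TOM-1, and -0.71 (SE 0.88) without control replicate 3. OTC, which would join carbamoyl phosphate to ornithine, had 0 reads in 10 of the 12 libraries, with 14 reads and 1 read in the other two, both treated RS4;11.

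**Figure D3:**
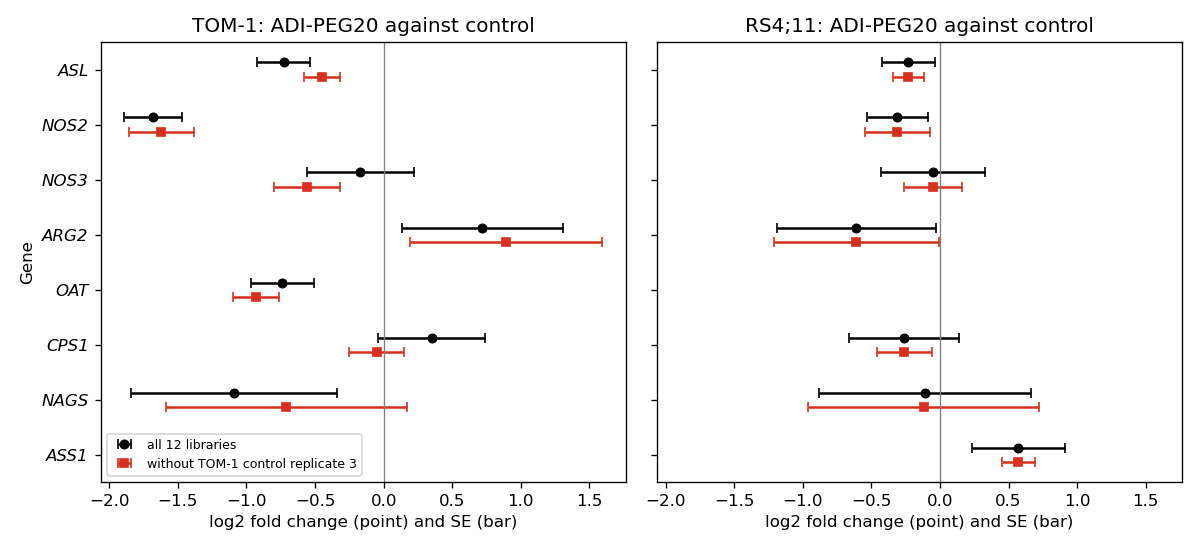
Log2 fold change with ADI-PEG20 (horizontal axis, point, with SE as bar) of the enzymes (vertical axis) in TOM-1 on the left and RS4;11 on the right, with every library and with TOM-1 control replicate 3 left out. Genes at or near the floor in a line are left out of its panel, as are GATM and AGMAT. NOS2 in TOM-1 lies farthest from 0, and CPS1 in TOM-1 moves from 0.35 to -0.05 when that library is left out.

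Ordered by mean CPM per kilobase, TOM-1 controls ran OAT (8.94), ASL (5.79), NOS2 (2.95), CPS1 (1.01), NOS3 (0.681), NAGS (0.37), ARG2 (0.239), AGMAT (0.0336), GATM (0.00428) and ASS1 (0). OAT and ASL overlapped in range, as did each neighbouring pair from CPS1 to ARG2 and from AGMAT to ASS1, while ASL lay above NOS2, NOS2 above CPS1 and ARG2 above AGMAT. With ADI-PEG20 in TOM-1, OAT (5.37) no longer overlapped ASL (3.48), and CPS1 (1.3) stood above NOS2 (0.917) with overlapping ranges. In RS4;11 controls the order was ASS1 (53), ASL (7.75), GATM (2.27), NOS3 (1.75), NOS2 (0.748), ARG2 (0.53), CPS1 (0.491), NAGS (0.154), AGMAT (0.138) and OAT (0). Its leading 4 did not overlap their neighbours, and NOS2, ARG2 and CPS1 did. Treated RS4;11 kept the same leading 5, with ASS1 at 78.9 and GATM (2.22) overlapping NOS3 (1.7).

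Other genes of arginine transport and metabolism were read as a list of 30, of which 20 passed the filter. In TOM-1, 9 of the 20 were called with ADI-PEG20, 2 higher and 7 lower, against 31.9% of all genes, and 11 without control replicate 3, against 41.6%. In RS4;11 none was called by edgeR in either fit, against 0% of all genes, and 0.317% without TOM-1 control replicate 3. With all libraries, 0 of the 20 had an unadjusted edgeR p under 0.05 in RS4;11, against 325 of 17349 genes. Without that library 7 of the 20 did, against 2207 of 18321 genes. Their median log2 change in TOM-1 was -0.39, and -0.12 without control replicate 3, against 0.05 and 0.00 over all genes. The difference between the lines was called for 5 of the 20, against 11.9% of all genes, and for 9 without that library, against 30.4%. DDAH1, PRODH, PADI1 and PADI3 had no read in any library, and PADI2, PADI4 and SLC25A2 had at most 8.

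The genes that rose in TOM-1 were transporters. SLC7A1, the main cationic amino acid carrier, had 319.7, 286.7 and 110.5 CPM in controls and 464.7, 456.7 and 455.7 CPM with the drug, a rise of 0.94 log2 (SE 0.28, edgeR adjusted p of 0.0246) that was 0.59 (SE 0.07) without control replicate 3, the lowest of the controls. SLC3A2, the heavy chain of several amino acid exchangers, had 364.2, 368.9 and 701.3 CPM in controls and 1061, 1050 and 975.6 CPM with the drug. It rose by 1.11 log2 (SE 0.21, edgeR adjusted p of 0.00204), and by 1.49 (SE 0.06) without control replicate 3, there the highest control. Its effect differed from that in RS4;11 by 1.16 log2 (SE 0.29, edgeR adjusted p of 0.0253), and by 1.54 (SE 0.08) without that library. For SLC7A1 the difference between the lines was not called (0.73 log2, SE 0.40, edgeR adjusted p of 0.267) except without control replicate 3 (0.38, SE 0.09, adjusted p of 0.00327).

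Enzymes of proline and glutamate semialdehyde metabolism, which share a substrate with OAT, were among the genes that fell in TOM-1. PYCR3, a pyrroline-5-carboxylate reductase that acts on the ornithine route, went from 42.5, 38.1 and 81.9 CPM to 14.6, 14.4 and 11.7 CPM, a fall of 1.99 log2 (SE 0.26, edgeR adjusted p of 0.000179) that was 1.57 (SE 0.12) without control replicate 3. ALDH4A1, which oxidises glutamate semialdehyde, fell by 1.20 log2 (SE 0.12, edgeR adjusted p of 3.48e-05), from 44.4 ± 4.84 to 19.3 ± 0.217 CPM (SD), and by 1.12 (SE 0.10) without control replicate 3. ALDH18A1, which makes it from glutamate, fell by 1.03 log2 (SE 0.11, edgeR adjusted p of 4e-05), from 213.2 ± 16 to 104.7 ± 2 CPM (SD), and by 1.09 (SE 0.07) without that library. The effect on each of PYCR3, ALDH4A1 and ALDH18A1 also differed between the lines, with edgeR adjusted p of 0.00963, 0.00124 and 0.00298. Without control replicate 3 these differences were -1.29 (SE 0.16), -1.11 (SE 0.14) and -0.96 (SE 0.09) log2, against -1.71 (SE 0.35), -1.20 (SE 0.17) and -0.89 (SE 0.15). CASTOR2, related to the arginine sensor CASTOR1, fell by 0.75 log2 (SE 0.17, edgeR adjusted p of 0.00556). The mitochondrial ornithine and basic amino acid carriers SLC25A15 and SLC25A29 fell by 0.39 (SE 0.13, edgeR adjusted p of 0.0388) and 0.30 (SE 0.10, edgeR adjusted p of 0.0445). Without control replicate 3, CASTOR2, SLC25A15 and SLC25A29 fell by 0.58 (SE 0.13), 0.47 (SE 0.11) and 0.27 (SE 0.07). PYCR1 and SLC7A6 were called only without control replicate 3, at -0.19 (SE 0.07) and -1.21 (SE 0.13) log2.

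**Figure D4:**
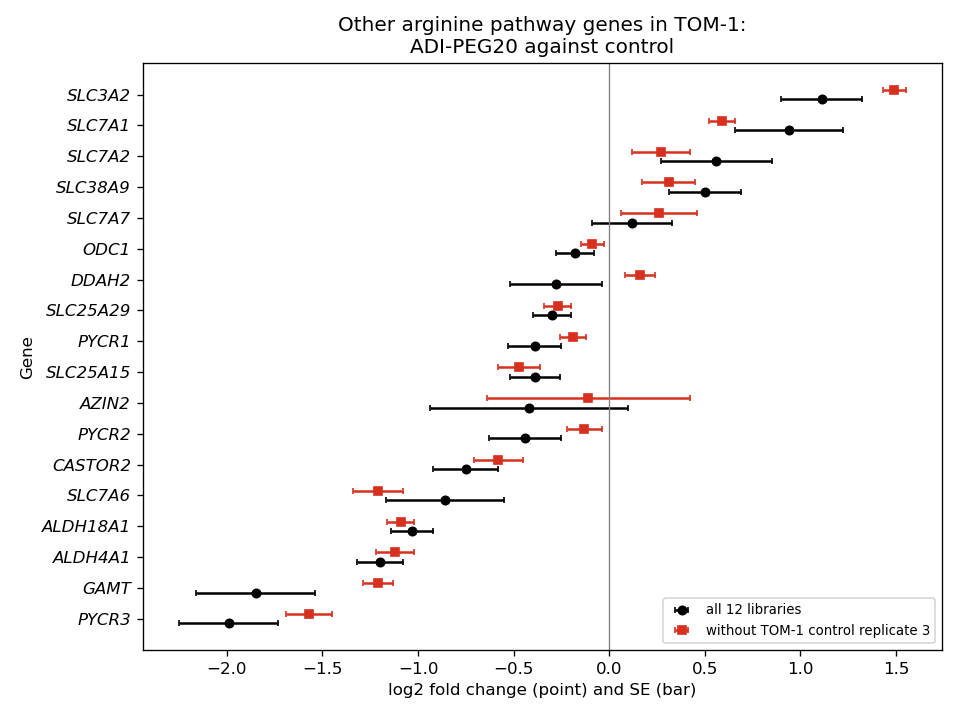
Log2 fold change with ADI-PEG20 in TOM-1 (horizontal axis, point, with SE as bar) of the other pathway genes that passed the filter (vertical axis), with every library and with control replicate 3 left out. SLC7A3 and CASTOR1, with few reads in TOM-1, are not shown. SLC3A2 and SLC7A1 lie to the right of 0 and PYCR3 farthest to the left in both fits, while DDAH2 moves from -0.28 to 0.16.

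SLC7A2 and SLC7A3, carriers of arginine, were each near 0 in 1 of the lines. SLC7A2 had 29.6, 31.4 and 14.1 CPM in TOM-1 controls and 0 reads in all RS4;11 libraries, at least 189.6-fold higher in TOM-1. SLC7A3 had 15 ± 1.63 CPM in RS4;11 controls (SD, n = 3) and 3, 1 and 9 reads in TOM-1 controls, 91.5-fold lower in TOM-1 by summed counts (95% interval 53.3 to 172.5, counting error only). The fitted log2 difference was -6.40 (SE 0.59), and -7.73 (SE 0.42) without control replicate 3, which held 9 of those reads. SLC7A1 was expressed in both lines. In control culture 8 of the 20 tested pathway genes differed between the lines, 5 higher and 3 lower in TOM-1, against 34.7% of all genes, and 12 without TOM-1 control replicate 3, against 52.8%. Under ADI-PEG20 14 differed, 5 higher and 9 lower, against 47.2% of all genes, and 15 without that library, against 62.9%. ODC1, which makes putrescine from ornithine, was higher in TOM-1 controls by 0.33 log2 (SE 0.10, edgeR adjusted p of 0.0264), and by 0.24 (SE 0.06) without replicate 3. SLC7A7, a light chain of a cationic amino acid exchanger, was lower in TOM-1 controls, with a log2 difference of -0.93 (SE 0.21, edgeR adjusted p of 0.00429), and of -1.07 (SE 0.20) without replicate 3.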

How the data were processed

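The authors deposited a table of whole-number read counts per Ensembl gene for the 12 libraries. STAR, SAMtools, featureCounts and hg38 are named in the submitters' processing notes, while the annotation release, the use of strand and the treatment of reads with several matches are not given in the sources used here. No 2 libraries of a group agreed within sampling noise, so none was treated as a repeat run of another, and each entered the tests as 1 sample. This does not show that they came from separate cultures. Genes were filtered with filterByExpr, scaled by TMM and fitted in 1 model of the 4 groups with the quasi-likelihood test of edgeR 4.0.16 (R 4.3.3). Benjamini-Hochberg adjustment ran over all genes tested, with a threshold of 0.05, for 5 comparisons. The procedure was run on simulated counts. Changes were planted there only in genes with higher counts, and no library was made to stand apart. That run therefore does not cover genes with few or no reads, or a library like TOM-1 control replicate 3. SE is the log2 fold change divided by the root of its F statistic. A count of 0 was bounded by 3 counts per library. Folds against groups at 0 are lower bounds for the mean seen in the other group, whose own error is not included. Levels between genes are CPM per kilobase of GENCODE 29 exonic length, and copies were aligned with BLAST 2.17.0. Exact intervals (95%) of ratios of summed counts and the reading of copies of ASL and NOS2 were added after seeing the data. The ratio of ASS1 to ASL with its permutation test, the order per kilobase and the printed promoter stretches were not among the planned results. Alternatives were DESeq2 size factors, no filter, a block for the replicate number, a mean of at least 10 counts, each library left out, and DESeq2 1.42.0 with its Wald test.

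All 10 enzymes are named whatever their values, the other pathway genes where called with a mean of at least 5 CPM in a group compared or where their reads are absent or few, ASS1 copies where they hold reads, 5 protein-coding neighbours of ASS1 on each side with ABL1, and the 3 genes above 5 CPM with the pattern most like those of ASS1 and ASL. The members and lists were chosen with earlier results of these data known.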

Additional observations from a re-analysis of the deposited data

Results flagged for a closer look

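The response of NOS2 to ADI-PEG20 differed between the lines. The interaction of line and drug was -1.37 log2 (SE 0.30), with an edgeR adjusted p of 0.0127, from a change of -1.68 in TOM-1 and of -0.31 in RS4;11. All 3 treated TOM-1 libraries (3.63 to 4.76 CPM) lay below all 3 TOM-1 controls (11.9 to 14 CPM), while the RS4;11 ranges (2.48 to 2.79 treated, 2.76 to 3.78 control) overlapped. With each of the 12 libraries left out in turn it ran from -1.55 to -1.30 and was called every time.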

How the results depend on the processing

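Of 731 values computed under alternatives, 681 kept their direction and side of the threshold, 24 lost a call, 11 gained one and 15 changed sign. The count of enzymes called for ADI-PEG20 in TOM-1 ran from 2 to 4 over fits that left out 1 library, in RS4;11 from 0 to 1, and for the difference between the lines from 1 to 2. Over all genes, these fits called 3960 to 7616 in TOM-1, 0 to 58 in RS4;11 and 1169 to 5567 for the difference. That difference was called for 2 enzymes by DESeq2, which added ASS1 (4.54, adjusted p of 0.0192). The cause was not tested. The NOS2 difference just missed the threshold with no filter on low counts (-1.38, edgeR adjusted p of 0.05). The NOS2 excess in TOM-1 under ADI-PEG20 lost its call with DESeq2 size factors (edgeR adjusted p of 0.0519), with no filter (0.19) and in DESeq2 (0.0661). CPS1 between control cultures gained a call with no filter (edgeR adjusted p of 0.0184) and in DESeq2 (0.0323), and the ASS1 difference with no filter (0.00812).

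The 15 sign changes were in values without a call. Over fits that left out 1 library, ARG2 between treated lines ran from -0.44 to 0.45, NAGS between treated lines from -0.13 to 1.18, and CPS1 in TOM-1 from -0.05 to 0.67. NOS3 ran from -0.56 to 0.40 in TOM-1, from -0.13 to 0.03 in RS4;11 and from -0.51 to 0.45 for their difference. In RS4;11, GATM ran from -0.19 to 0.18 and NAGS from -1.10 to 0.28.

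Whether replicate numbers pair the libraries was not settled. Deviations of same-numbered libraries correlated at -0.06 to -0.01 in TOM-1 and 0.03 to 0.14 in RS4;11. Those of different-numbered libraries correlated at -0.05 to 0.07 in TOM-1 and -0.1 to 0.06 in RS4;11. Deviations from a mean of 3 libraries constrain each other, so these values cannot exclude pairing. With the replicate block, 4758 of 17349 genes and 3 enzymes were called in TOM-1, with OAT at -0.71 (edgeR adjusted p of 0.0818). For the difference it called 2 enzymes, with ASS1 at 5.41 (edgeR adjusted p of 0.019). NOS3 was 0.04 in TOM-1 and 0.09 for the difference. Over all genes, calls for the difference went from 2072 to 1213 under the block, 3228 in DESeq2, and 1169 to 5567 with 1 library left out, the highest without TOM-1 control replicate 3. Low depth, with 0 to 50 reads per library, limits what can be seen of a drug effect on ARG2, NAGS and AGMAT.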
